A study of Homo sapiens with 18 samples.

Results

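The 10 immediate early genes *FOS*, *FOSB*, *JUN*, *JUNB*, *EGR1*, *IER2*, *IER3*, *DUSP1*, *KLF6* and *MYC* were taken by name, and all 10 were found among the 57500 genes counted. They were followed in 18 poly-A RNA-seq libraries from 2 sarcoma cell lines: ES8, labelled as Ewing sarcoma, and Rh30, labelled as rhabdomyosarcoma. All cells carried dCas9-KRAB, a nuclease-dead Cas9 fused to a transcriptional repressor, and were selected with puromycin for 72 hours after lentiviral delivery of a guide. In each line, parental cells received either a control guide (sgCTL) or a guide directed to *DNAJC17* (sgDNAJC17). The third group was a population stably expressing 3xFLAG-DNAJC17-dRRM, which lacks the RNA recognition motif (ΔRRM below), and it received sgDNAJC17. Each of the 6 groups held 3 libraries from cells plated in triplicate, lettered A to C, so that p-values measure only the spread between such platings, which may be technical. By the study's methods, the *DNAJC17* alleles were cloned in a vector that was selected with hygromycin. ΔRRM cells with the control guide were not analysed here. Effects of carrying the transgene, of that selection and of the guide in those cells therefore cannot be told apart.

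Immediate early genes are transcribed within minutes of a growth factor, stress or mitogen reaching the cell, without prior protein synthesis. Mitogen-activated protein (MAP) kinase signalling leads to phosphorylation of serum response factor partners and CREB-family factors that already sit at the promoters. The transcripts are removed quickly, in part through AU-rich elements in the 3′ UTR. *FOS* and *FOSB* encode leucine zipper proteins that pair with the *JUN* or *JUNB* product to form the transcription factor AP-1. *EGR1* and *KLF6* encode zinc finger transcription factors, *IER2* and *IER3* encode small early response proteins, *DUSP1* encodes a phosphatase that switches MAP kinases off, and *MYC* encodes a transcription factor that promotes growth.

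Elements through which immediate early genes are known to be induced were searched in RefSeq promoters on GRCh38.p14. A window of 250 bases before the start was given for 8 members, all but *IER3* and *MYC*. For *JUN* the RefSeq start lies inside the exon counted here, so its window holds sequence of that exon. The CArG box, to which serum response factor binds, occurred in 1.14% of 27305 promoters and among the members in *EGR1*. The cAMP response element (CRE) TGACGTCA occurred in 1.77% of promoters and among the members in *DUSP1*. The AP-1 site TGACTCA, or TGAGTCA on the other strand, occurred in 4.16% of promoters and in none of the 8 windows. The shorter CRE core TGACG, read on both strands and overlapping the full CRE, occurred in 21.7% of promoters and in 7 of the 8 windows, all but *KLF6*. That core was added to the search after the windows had been read. The windows below are examples of these elements in members whose transcripts changed, with the element in capitals. A link between element and change was not tested. *JUNB*, not called within either line after knockdown or in ΔRRM cells, also holds the core. *KLF6*, called in Rh30 ΔRRM cells, holds none of these elements in its window. Windows around further cores, in *JUN*, *JUNB*, *EGR1*, *IER2* and *DUSP1*, are not printed. A match is a description of the letters and not a binding site. A member without a match may still hold such an element farther upstream or with other letters, since neither was searched.
EGR1, CArG box, chr5:138465364-138465393, plus strand: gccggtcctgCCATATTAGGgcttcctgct
EGR1, CArG box, chr5:138465386-138465415, plus strand: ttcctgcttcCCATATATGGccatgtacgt
DUSP1, CRE, chr5:172771303-172771330, minus strand: gcagggcgggTGACGTCAccgccccgtc
FOS, CRE core, chr14:75278754-75278778, plus strand: gttgagcccgTGACGtttacactca
FOSB, CRE core, chr19:45467926-45467950, plus strand: aaggggcgggTGACGtaagcagggg

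The 3′ UTRs were read from GENCODE transcript sequences, taking for each gene the protein-coding transcript with the longest coding part. The pentamer ATTTA of AU-rich elements occurred in the 3′ UTR of 9 of 10 members, all but *IER2*, and in 65.5% of 18986 genes. The longer form TATTTAT occurred in 7 of 10 members, all but *JUNB*, *EGR1* and *IER2*, and in 30% of all genes. Among the 10174 genes whose 3′ UTR length lay within the members' range, 34.5% held TATTTAT. *IER3* had the densest ATTTA at 8.14 per kb, followed by *FOS* at 6.2 and *DUSP1* at 6.01, beside a median of 1.45 per kb over all genes. The following windows around TATTTAT show that element in those 3 members.
FOS: gtttttaattTATTTATtaagatggat
IER3: tcctaattaaTATTTATatgtatttat
DUSP1: ggctggtcctTATTTATttaacttcac

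By the coordinates in the files, which follow GRCh38, the members lie on 7 chromosomes. *FOS* spans chr14:75278774-75282230, *FOSB* chr19:45467995-45475179, *JUN* chr1:58780788-58784327, *JUNB* chr19:12791496-12793315 and *EGR1* chr5:138465490-138469315. *IER2* spans chr19:13150415-13154908, *IER3* chr6:30743199-30744554, *DUSP1* chr5:172768090-172771195, *KLF6* chr10:3775996-3785281 and *MYC* chr8:127735434-127741434. *JUN*, *IER3*, *DUSP1* and *KLF6* are on the minus strand and the others on the plus strand. Exons of 3 members overlap a gene on the opposite strand: *JUNB* shares 259 bases (14.2% of its exons) with *HOOK2*, *IER3* shares 359 bases (26.5%) with *IER3-AS1*, and *IER2* shares 946 bases (30.8%) with an unnamed gene that had 0 counts in all 18 libraries. The strand setting of the counting is not given in the sources used here, so reads in those stretches cannot be assigned to a strand with certainty.

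The libraries held 35342393 to 48245989 counted reads. *DNAJC17* itself, the targeted gene, was at 11.2, 12.4 and 12.3 CPM, the count scaled to library size, in the ES8 sgCTL libraries and 1.56, 1.96 and 1.56 with sgDNAJC17. In Rh30 it was at 11.7, 11.9 and 10.8 CPM with sgCTL and 2.52, 2.20 and 2.72 with sgDNAJC17. In ΔRRM cells it reached 283 to 312 CPM in ES8 and 336 to 368 CPM in Rh30, values that include reads of the transgene. All 8 Ewing markers examined exceeded 1 CPM in each ES8 group and none did in Rh30, and all 8 rhabdomyosarcoma markers exceeded 1 CPM in Rh30 sgCTL. Of the latter, 1 exceeded 1 CPM in ES8 sgCTL, where the list summed to 92.2 to 94.7 CPM, and 2 did in ES8 ΔRRM cells. Groups were compared with the edgeR quasi-likelihood test, and a gene passed at a Benjamini-Hochberg adjusted p below 0.05 over all genes tested. All 10 members entered every comparison. Levels are given as CPM scaled over all 18 libraries, and fold changes come from fits scaled within each comparison.

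The lines were first compared under the control guide. Per length, as CPM divided by the exon length in kilobases (FPKM), *MYC* was the highest member in ES8 at 65.7 ± 0.55 (SD, n = 3), followed by *IER2* at 22.6 ± 0.854 and *DUSP1* at 15.6 ± 0.540. The ES8 order then ran through *JUNB* at 8.27, *JUN* at 7.02, *KLF6* at 5.82, *IER3* at 4.09, *FOS* at 3.41, *EGR1* at 0.882 and *FOSB* at 0.0525 FPKM, and the ranges of no neighbours overlapped. In Rh30 *JUN* stood first at 323 ± 11.3 FPKM. *MYC* at 85.7 ± 3.35 and *JUNB* at 82.3 ± 3.67 followed with overlapping ranges. *FOS* was second to last in Rh30 at 0.588 ± 0.0656 FPKM and *FOSB* last at 0.0660 ± 0.0482.

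**Figure D1:**
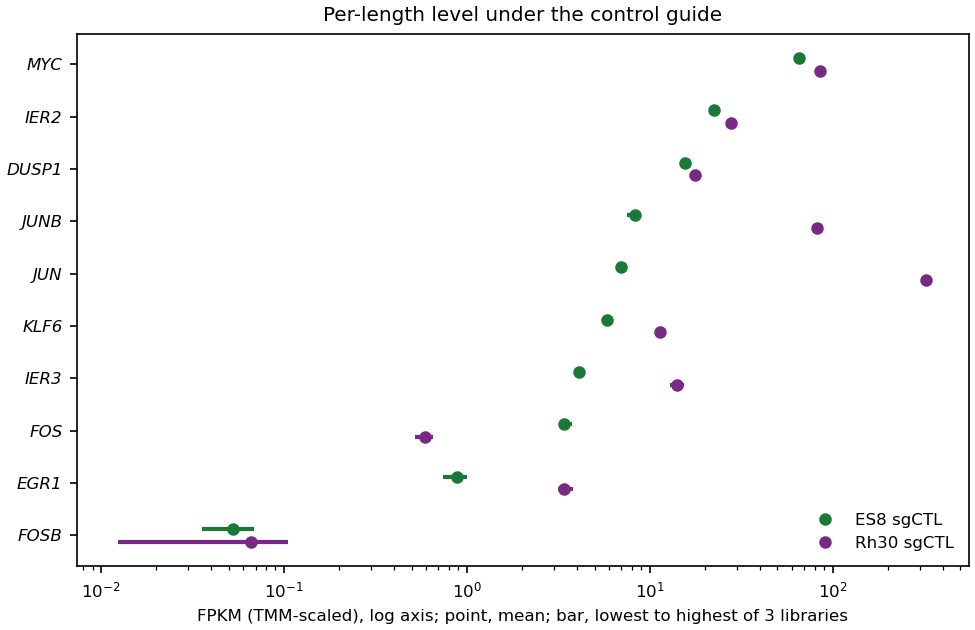
Per-length level of each member in the control-guide libraries of ES8 (green) and Rh30 (purple), in FPKM on a log axis; points are means and bars run from the lowest to the highest of 3 libraries. *JUN* and *JUNB* lie far to the right in Rh30, whereas *FOS* lies to the left.

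*JUN*, the most widely used AP-1 partner, was at 25.6, 23.8 and 25.1 CPM in ES8 and at 1181, 1151 and 1102 CPM in Rh30. The difference was 45.2-fold (log2 5.50, SE 0.0563, adjusted p = 3.272e-47). *JUNB* was 9.77-fold higher in Rh30 (log2 3.29, SE 0.0604), at 143 to 156 CPM against 13.7 to 16.0. *FOS* went the other way. It was at 12.3, 10.6 and 10.3 CPM in ES8 against 2.12, 1.69 and 1.90 in Rh30, a log2 difference of -2.57 (SE 0.12, adjusted p = 4.628e-23). *EGR1* (log2 1.92), *IER3* (1.76), *KLF6* (0.95), *MYC* (0.36), *IER2* (0.27) and *DUSP1* (0.16) were higher in Rh30, with *DUSP1* the closest to the threshold at an adjusted p of 0.01019. *DUSP1* turned to -0.05 with library totals in place of TMM scaling, a setting that put the median of all genes at -0.28. *FOSB* differed by 0.29 with an adjusted p of 0.536. In all, 8 members were higher and 1 lower in a comparison in which 87.5% of 17925 genes passed the test, 42% as higher and 45.5% as lower. With a fold of at least 2 as well, 4 members were higher and 1 lower, where 22.2% and 28.7% of genes met that rule. The median of all genes was -0.07 on the log2 scale and that of the members 0.65.

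In ES8, suppression of *DNAJC17* was accompanied by higher *FOSB*, *IER2* and *DUSP1*. *FOSB* was at 0.379, 0.298 and 0.197 CPM with sgCTL and at 1.08, 0.968 and 1.28 with sgDNAJC17. The groups were well apart, although these values rest on 10 to 19 and 38 to 55 reads a library. The rise was 3.74-fold (log2 1.90, SE 0.293, adjusted p = 0.001644), and *FOSB* was the sole member past a fold of 2, a rule met with a higher level by 1.66% of the 17143 genes tested. *IER2* was at 72.4, 68.6 and 67.4 CPM with sgCTL and at 108, 95.3 and 91.1 with sgDNAJC17 (log2 0.48, SE 0.0741, adjusted p = 0.001718). *DUSP1*, the MAP kinase phosphatase, was at 32.7, 30.6 and 31.3 CPM against 51.6, 40.0 and 40.3 (log2 0.46, SE 0.101, adjusted p = 0.008924). In each of the 3 genes every sgDNAJC17 library lay above every sgCTL library, and for *IER2* and *DUSP1* library A was the highest of the knockdown group.

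The remaining 7 members did not pass in ES8. *FOS* was at 12.3, 10.6 and 10.3 CPM with sgCTL and 13.7, 13.1 and 13.0 with sgDNAJC17, so that the groups did not overlap, but the log2 difference of 0.24 (SE 0.0937) had an adjusted p of 0.0842. *JUN* (0.16) and *JUNB* (0.22) also lay without overlap at adjusted p of 0.184 and 0.116. *EGR1* (0.06), *IER3* (-0.02), *KLF6* (-0.05) and *MYC* (-0.05) overlapped between groups. Thus 3 members were called, all higher, where 27.4% of genes were called in either direction, 13.6% as higher and 13.8% as lower. The groups of 6 members did not overlap, beside 44.8% of all genes. The members' median was 0.19 on the log2 scale and that of all genes -0.02. Without the sgDNAJC17 library A, *FOS* (0.21, adjusted p = 0.03422) and, with a lower level, *MYC* (-0.10, adjusted p = 0.01705) passed as well. Immune markers summed to 1.14 to 1.5 CPM with sgDNAJC17 and 0.571 to 0.758 CPM with sgCTL, and their part in these values was not tested. With sgDNAJC17, 1 of these 6 markers had a mean over 1 CPM, and *PTPRC*, *CD3E* and *MS4A1* were at 0 in all libraries. With sgCTL, 0 of them had a mean over 1 CPM, and *CD3E* and *MS4A1* were at 0.

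In Rh30, *IER2*, *DUSP1* and *IER3* rose after suppression of *DNAJC17*, each by less than the 2-fold rule. *IER2* was at 86.0, 85.6 and 84.4 CPM with sgCTL and at 106, 104 and 95.0 with sgDNAJC17 (log2 0.26, SE 0.0605, adjusted p = 0.004783). *DUSP1* was at 35.0, 36.9 and 35.6 CPM against 43.7, 46.8 and 37.9 (log2 0.27, SE 0.0770, adjusted p = 0.01576). For both genes all knockdown libraries lay above all control libraries, with library C closest to the controls. *IER3* was at 21.0, 19.0 and 17.5 CPM against 23.3, 22.3 and 21.0, and here the highest control, at 21.02, reached into the knockdown group, whose lowest library was at 20.95. Its log2 difference was 0.23 (SE 0.0826, adjusted p = 0.04872), and DESeq2 did not call it (adjusted p = 0.06853).

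*FOSB*, the most changed member in ES8, was at 0.443, 0.0686 and 0.587 CPM in Rh30 with sgCTL and at 0.602, 0.761 and 0.575 with sgDNAJC17. The low control library B held 3 reads of the gene, and the log2 difference of 0.83 (SE 0.464) did not pass (adjusted p = 0.188) and ranged from 0.33 to 1.36 on leaving out 1 library. *MYC* (0.16, adjusted p = 0.05147), *EGR1* (0.22, 0.125) and *KLF6* (-0.14, 0.114) did not pass either. *FOS* (0.08), *JUN* (0.07) and *JUNB* (0.02) overlapped between groups. The 3 calls, all higher, stood beside 32.3% of 15391 genes called in either direction, 16.1% as higher and 16.2% as lower, and the groups of 4 members did not overlap, beside 44.3% of all genes. Of the 7 epithelial markers tested, 6 were higher and 1 lower in these knockdown cells, and the 12 markers summed to 90.7 to 102 CPM against 96.1 to 106 with sgCTL, where *CLDN7* and *RAB25* were at 0. *CLDN4*, the marker that fell, made up 94.7 to 104.5 CPM of the sgCTL sum, so the sum hides the others. The keratin genes *KRT8* and *KRT18* rose 11.3-fold and 12.6-fold, from 0.853 to 9.51 and from 0.251 to 3.18 CPM. *KRT19*, *CDH1*, *TFF1* and *SPTSSB* rose from at most 7 reads a library to 13 to 98. Their part in the members' values was not tested.

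The Rh30 calls depended on single libraries. *IER2* alone passed without the sgCTL library C or without the sgDNAJC17 library B. *DUSP1* also lost its call without the sgCTL library A, and *IER3* without the sgCTL library B or the sgDNAJC17 library A. With library totals in place of TMM scaling, *IER2* remained the only call as higher and *KLF6* was called lower (-0.20, 0.03651). The replicate letters did not meet the rule for a pairing and were not used in these fits. A fit with the letter as a block called more members, and 7235 of all genes in place of 4974. Its counts are given in the last section.

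Across the 12 parental libraries the change after knockdown was not found to differ between lines for any member, by the edgeR test of the line-by-guide interaction, which 9.78% of 18899 genes passed. DESeq2 also called 0 of 10. At an unadjusted p below 0.05 there was 1 member, *MYC* (0.24 higher in Rh30 than in ES8, SE 0.0936, adjusted p = 0.1085). *FOSB* had the widest difference, at -1.04 with an SE of 0.593. Without the ES8 sgDNAJC17 library A *MYC* passed (0.30, adjusted p = 0.0092), and without the Rh30 sgCTL library B *FOSB* passed (-1.54, adjusted p = 0.04967), whereas without the Rh30 sgCTL library C it was at -0.51 and did not. After correction for GC content and length 2 passed, *MYC* (0.25) and *IER3* (0.42), both as higher in Rh30.

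**Figure D2:**
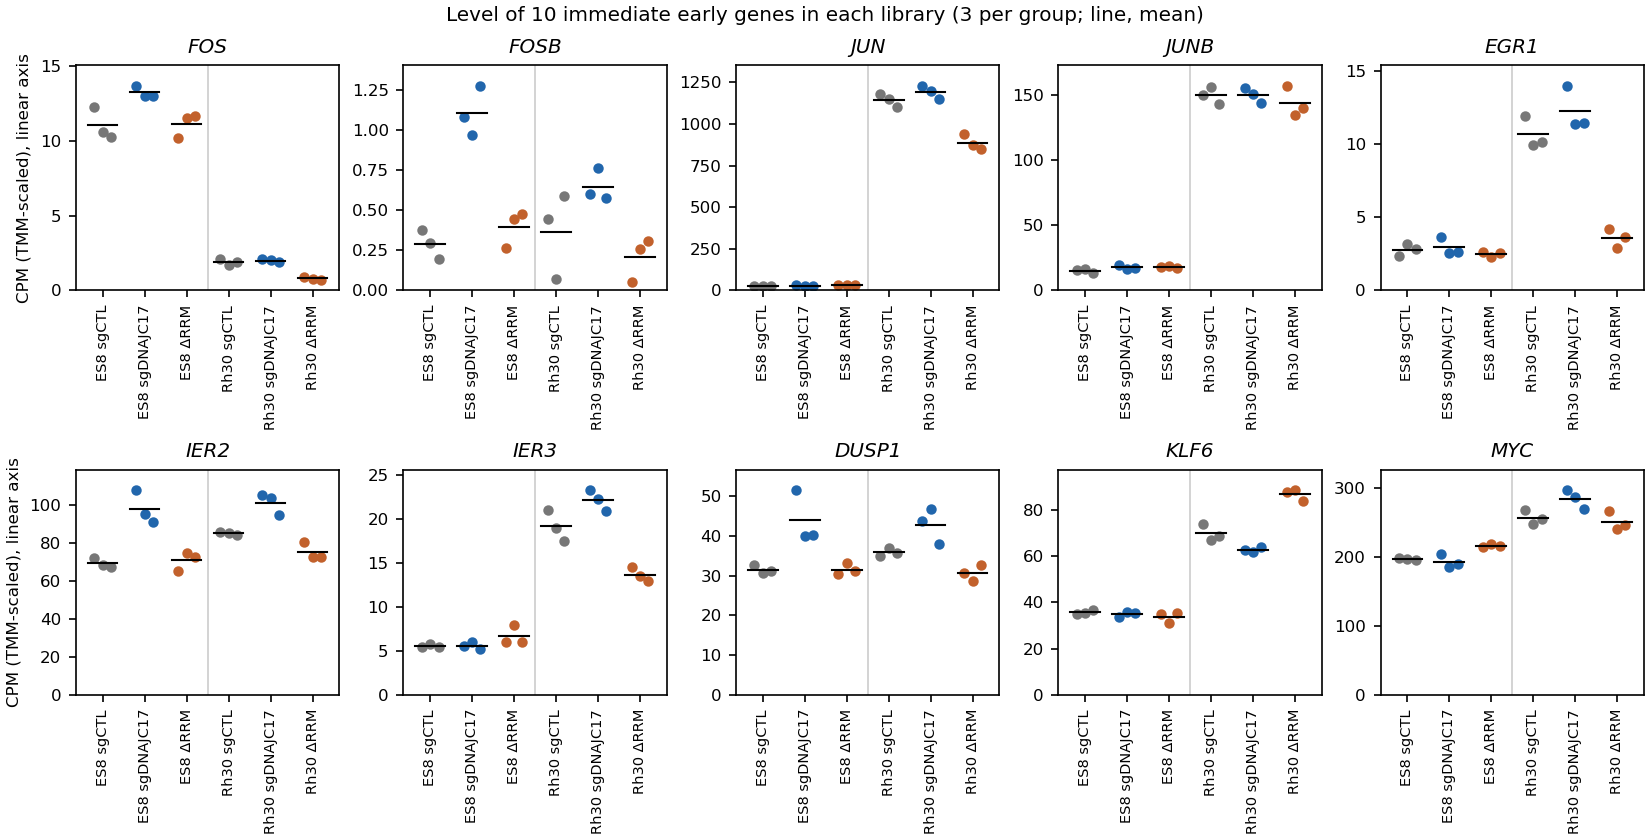
Level of each member in every library, in CPM on linear axes that start at 0; points are libraries A to C from left to right in each group, grey for sgCTL, blue for sgDNAJC17 and orange for ΔRRM with sgDNAJC17, and black lines are means. *FOSB*, *IER2* and *DUSP1* stand higher in the ES8 sgDNAJC17 group, and *FOS*, *EGR1*, *IER3* and *JUN* stand lower in the Rh30 ΔRRM group.

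In ES8, no member passed the edgeR test between ΔRRM cells with sgDNAJC17 and control-guide cells. In that comparison 0.174% of 17199 genes passed. *IER2* was at 65.3, 74.8 and 72.7 CPM in ΔRRM cells, which spans the control range, with a log2 difference of 0.02 (SE 0.0701). *DUSP1* was at 30.3, 33.1 and 31.1 CPM, a difference of -0.01 (SE 0.0711), and *FOS* differed by 0.01 (SE 0.0986). *FOSB* was at 0.267, 0.448 and 0.475 CPM, a difference of 0.44 (SE 0.384, adjusted p = 0.6206) from 12 to 22 reads a library. *JUN* was at 29.9, 33.2 and 33.0 CPM, above all control libraries, at 0.36 (SE 0.0751, adjusted p = 0.0979). Its difference after knockdown had been 0.16. *IER3* (0.25), *EGR1* (-0.17) and *KLF6* (-0.08) did not pass either. At an unadjusted p below 0.05 there were 3 members, *JUN*, *JUNB* (0.24) and *MYC* (0.13), and all were higher. DESeq2 called 1 of them, *JUN* (adjusted p = 0.01136), and *JUN* also passed in edgeR without the ΔRRM library A or B.

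Against ES8 sgDNAJC17 cells, *FOSB*, *IER2* and *DUSP1*, the 3 genes called higher on knockdown, were lower in ΔRRM cells. *FOSB* fell by 1.45 on the log2 scale (SE 0.303, adjusted p = 0.008682), *IER2* fell by 0.45 (SE 0.0983, adjusted p = 0.01135) and *DUSP1* fell by 0.46 (SE 0.116, adjusted p = 0.02083). As lower were called 3 of 10 members and 7.36% of 17099 genes, and in either direction 14.7% of genes. This comparison shares its knockdown libraries with the comparison of sgDNAJC17 and sgCTL, so it is not separate evidence of the rise. *DUSP1* lost its call without the ΔRRM library A (adjusted p = 0.06176) or C (0.08303).

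In Rh30 the ΔRRM cells were unlike the control-guide cells. *EGR1* was at 11.9, 9.95 and 10.1 CPM with sgCTL and at 4.16, 2.89 and 3.62 in ΔRRM cells, a fall of 1.55 on the log2 scale (2.93-fold, SE 0.122, adjusted p = 1.889e-17). *FOS* was at 2.12, 1.69 and 1.90 CPM against 0.903, 0.781 and 0.717. It fell by 1.20 (2.30-fold, SE 0.239, adjusted p = 1.11e-05) on 74 to 86 and 21 to 33 reads a library. These 2 genes were the members past a fold of 2, a rule met with a lower level by 3.32% of 15442 genes. In both, the highest ΔRRM library lay below the lowest control.

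*IER3*, *JUN*, *DUSP1* and *IER2* fell by less. *IER3* was at 14.6, 13.5 and 12.9 CPM in ΔRRM cells, below the control range of 17.5 to 21.0, and fell by 0.45 (SE 0.0854, adjusted p = 4.908e-06). *JUN* was at 939, 874 and 847 CPM against 1102 to 1181, and fell by 0.33 (SE 0.0669, adjusted p = 1.487e-05). *DUSP1* fell by 0.19 (adjusted p = 0.01491) and *IER2* fell by 0.14 (adjusted p = 0.04194). The call of *IER2* was lost on leaving out any of 5 of the 6 libraries, and that of *DUSP1* without the control library B (adjusted p = 0.06893) or the ΔRRM library A (0.05168) or B (0.08657). *IER2* turned to 0.05 after correction for GC content and length.

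*KLF6* alone rose. It was at 88.2, 88.9 and 84.0 CPM in ΔRRM cells against 74.3, 67.1 and 68.8 with sgCTL, a difference of 0.35 (SE 0.0630, adjusted p = 1.679e-06). *JUNB* (-0.02) and *MYC* (0.00) overlapped between groups. *FOSB* was at 0.0547, 0.260 and 0.307 CPM, a difference of -0.80 (SE 0.531, adjusted p = 0.1785) that passed without the control library B (-1.30, adjusted p = 0.02271) and shrank to -0.27 without the control library C. Together 1 member was higher and 6 were lower, where 68.8% of genes passed, 33.8% higher and 35% lower. On leaving out 1 library, 4 to 5 members were called lower. The groups of 7 members did not overlap, beside 71.5% of all genes. The members' median was -0.26 and that of all genes -0.01 on the log2 scale.

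The Rh30 ΔRRM direction depends on scaling for some members. With library totals alone the median of all genes in this comparison was -0.25, *KLF6* differed by 0.11 (adjusted p = 0.123), *JUNB* was called lower at -0.26, and *MYC* turned to -0.23. *EGR1*, *FOS*, *IER3* and *JUN* were called lower under each scaling. Beside these changes, the 8 rhabdomyosarcoma markers were all lower in Rh30 ΔRRM cells than in sgCTL cells, with a summed level of 3040 to 3370 CPM against 4730 to 4830. Of 12 epithelial markers 7 were tested, and all 7 were higher; their list summed to 132 to 147 CPM against 96.1 to 106, again mostly from *CLDN4* (1.30-fold), while *KRT8* rose 11.1-fold and *KRT18* 12.2-fold, and *CLDN7* and *RAB25* were again those at 0 in the control libraries. Fibroblast and endothelial markers summed to 1.80 to 2.42 CPM in ΔRRM cells and at most 0.788 CPM in sgCTL cells, and immune markers to at most 1.23 CPM in any Rh30 group. Of the 7 fibroblast and endothelial markers, 1 had a mean over 1 CPM in ΔRRM cells and 0 in sgCTL cells. The part of all these markers in the members' values was not tested.

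Against Rh30 sgDNAJC17 cells, 8 members were lower and 1 higher in ΔRRM cells, where 30.5% of 15309 genes were called lower, 29.4% higher and 60% in either direction. *EGR1* fell by 1.78 (SE 0.129, adjusted p = 2.291e-21) from 14.0, 11.4 and 11.4 CPM. *FOSB* fell by 1.64 (SE 0.442, adjusted p = 0.0008692) and *FOS* fell by 1.30 (SE 0.247, adjusted p = 3.97e-06), and with *EGR1* they made 3 members past a fold of 2, a rule met with a lower level by 3.36% of genes. *IER3* (-0.69), *DUSP1* (-0.47), *JUN* (-0.42) and *IER2* (-0.42) fell with adjusted p of at most 5.637e-06. *MYC* (-0.17, adjusted p = 0.04874) passed narrowly and lost its call on leaving out any of 5 libraries. *KLF6* rose by 0.48 (SE 0.0787, adjusted p = 1.83e-07), and *JUNB* differed by -0.05 (adjusted p = 0.5965).

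**Figure D3:**
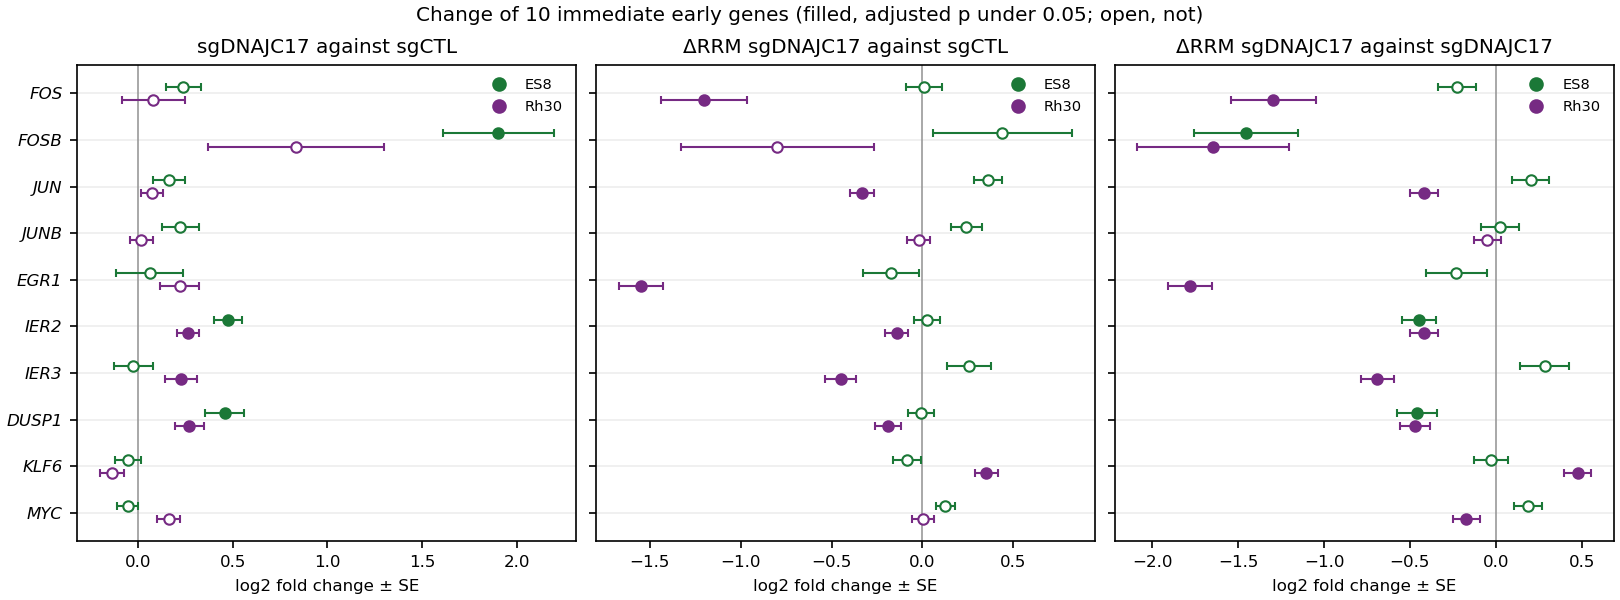
Log2 fold change of each member with its SE in 3 comparisons, for ES8 (green) and Rh30 (purple); filled points have an adjusted p below 0.05 and open points do not. In the middle panel *EGR1* and *FOS* lie at -1.55 and -1.20 in Rh30, whereas no ES8 point is filled.

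The difference of ΔRRM cells from sgCTL cells was itself compared between the lines. Relative to ES8, the Rh30 difference was lower for *EGR1* (-1.38, SE 0.209, adjusted p = 1.115e-05), *FOS* (-1.21, SE 0.214, 7.033e-05), *IER3* (-0.70, SE 0.151, 0.0005221), *JUN* (-0.69, SE 0.0879, 1.29e-06) and *JUNB* (-0.26, SE 0.103, 0.04725). It was higher for *KLF6* (0.44, SE 0.0958, adjusted p = 0.0006844). Thus 6 of 10 members passed, 1 higher and 5 lower, where 41.4% of 18854 genes did, 19.9% higher and 21.5% lower. *FOSB* (-1.24, SE 0.793), *DUSP1* (-0.18), *IER2* (-0.16) and *MYC* (-0.12) did not pass. *FOSB* ranged from -1.75 to -0.71 on leaving out 1 library and passed without the Rh30 sgCTL library B. *JUNB* lost its call on leaving out any of 7 of the 12 libraries. With library totals alone *KLF6* lost its call (0.22, adjusted p = 0.0973).

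The other genes of the pathway were read from lists. Beside the counts that follow, the shares of all genes called higher and lower were 13.6% and 13.8% in ES8 after knockdown, 16.1% and 16.2% in Rh30 after knockdown, and 33.8% and 35% in Rh30 ΔRRM cells against sgCTL. Of 15 other AP-1 family genes, 13 were tested in ES8 after knockdown, 6 were higher and the rest did not pass, with a median of 0.26 on the log2 scale. They included *MAFF* (0.74), the FOS-related *FOSL2* (0.68), the stress-induced *ATF3* (0.44) and *JUND* (0.33). In Rh30 after knockdown 12 were tested, 4 were higher and 3 lower; *FOSL1* (0.73), *MAFF* (0.62), *FOSL2* (0.27) and *ATF3* (0.20) were higher, and *MAF* was lower (-1.93, adjusted p = 0.0008799), as were *JUND* (-0.22) and *MAFK* (-0.37). In Rh30 ΔRRM cells 2 were higher and 8 lower than with sgCTL. Among them *MAFK* fell by 1.30 and *FOSL1*, *FOSL2* and *JUND* by 0.43 to 0.62, whereas *ATF3* rose by 0.69.

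Of 30 other immediate early genes, 29 were tested in ES8 after knockdown, with 6 higher and 1 lower. *NFKBIA* (0.54), an inhibitor of NF-κB, and *KLF10* (0.49) were higher, and *BTG2* was lower (-0.28). In Rh30 after knockdown, of 28 tested, 8 were higher and 2 lower, with *GADD45B* at 0.81 and *BTG2* at -0.47. In Rh30 ΔRRM cells, of 27 tested, 2 were higher and 20 lower than with sgCTL, and the median was -0.41. The orphan nuclear receptors *NR4A3* (-1.24, adjusted p = 1.337e-06) and *NR4A1* (-1.04, adjusted p = 0.001173) fell past a fold of 2, although *NR4A1* was at -0.62 without the ΔRRM library A, and *SRF*, which encodes serum response factor, fell by 0.74.

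Upstream, the 10 genes of serum response factor cofactors, ternary complex factors and CREB factors gave 8 lower and 2 higher in Rh30 ΔRRM cells. After knockdown 2 of the 10 were higher and 1 lower in ES8, with *ELK1* (0.29) and *MRTFA* (0.29) higher and *MYOCD* lower (-0.53), and in Rh30 4 were lower and 0 higher, with *MRTFA* at -0.30 and *MRTFB* at -0.51. In the ΔRRM cells *MYOCD*, a muscle cofactor of serum response factor, fell by 1.85, and *ELK1* and *ELK4*, which encode ternary complex factors, fell by 0.54 and 0.58. *CREM* rose by 1.28 (adjusted p = 2.334e-24). Of 14 MAP kinase genes tested there, 6 were lower and 3 higher; *MAPK3*, which encodes an ERK kinase, fell by 0.40. After knockdown 1 of 17 MAP kinase genes was higher and 3 lower in ES8, and 5 of 14 were lower in Rh30. Among the MAP kinase phosphatases and ERK feedback genes, 5 of 16 were higher in ES8 after knockdown and the rest did not pass; they included *DUSP8* (0.82), *DUSP16* (0.48) and *DUSP6* (0.29). In Rh30 after knockdown 2 of 15 were higher and 2 lower, with *DUSP4* at -0.90. In Rh30 ΔRRM cells 10 of 15 were lower and the rest did not pass, with *DUSP8* at -1.27 and *DUSP7* at -0.82.

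Downstream, 9 of 14 AP-1 target genes tested rose and 1 fell in Rh30 after knockdown, where 16.1% of all genes rose. *CXCL8*, which encodes interleukin-8, went from 3.91 to 4.02 CPM with sgCTL to 10.5 to 12.4 with sgDNAJC17 (log2 1.52, adjusted p = 7.263e-07), and *HMOX1* rose by 0.62. In ES8 1 of 13 rose and 2 fell. In Rh30 ΔRRM cells, 3 of 16 were higher than with sgCTL and 6 lower. *CXCL8* stood at 21.9 to 23.7 CPM there (log2 2.57), *LIF* fell by 0.76 and *CCND1*, which encodes cyclin D1, fell by 0.61. *MMP1* was called higher on 12 to 18 reads a library against 1 to 2 in sgCTL, and *MMP13* on 12 to 20 against 3 to 10, a call lost without the sgCTL library A or the ΔRRM library B.

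Of the factors that remove or stabilise AU-rich transcripts, 20 were tested in each comparison. After knockdown 2 were higher and 5 lower in ES8, and 3 higher and 5 lower in Rh30. *PAN2*, a deadenylase subunit, fell by 0.59 in ES8 and 0.85 in Rh30. In Rh30 ΔRRM cells 4 were higher and 11 lower than with sgCTL. *ZFP36L1* and *ZFP36L2*, which encode proteins that bind AU-rich elements and promote decay, fell by 0.71 and 0.73, and *TIA1* rose by 0.98. In the MYC network, 10 of 19 target genes were higher and 5 lower in Rh30 ΔRRM cells while *MYC* itself did not pass, and *NPM1* rose by 1.07. *MYCN*, the paralogue of *MYC*, was at 5.81 to 6.01 CPM with sgCTL and 2.32 to 3.02 in ΔRRM cells, a fall of 1.07 (adjusted p = 4.715e-10). Of 16 MYC partners and regulators, 5 were higher and 7 lower there. After knockdown 1 of 19 target genes was higher and 7 lower in ES8, against 7 higher and 2 lower in Rh30, and 3 partners were higher in each line with 4 lower in ES8 and 5 in Rh30.

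**Figure D4:**
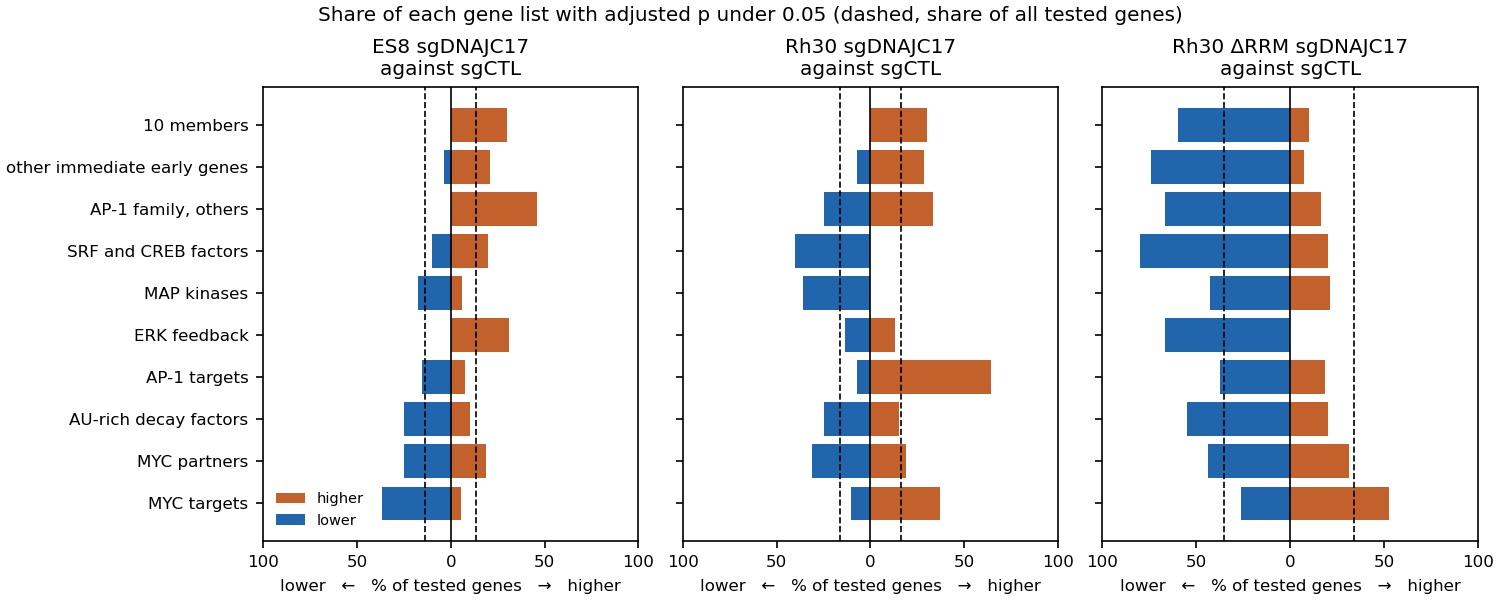
Percentage of the tested genes of each list that passed at an adjusted p below 0.05, higher to the right (orange) and lower to the left (blue), in 3 comparisons; dashed lines mark the percentage of all tested genes in that direction. In the right panel 6 of 10 members and 20 of 27 other immediate early genes are on the lower side.

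The pattern of each member over the 18 libraries was set against all other genes kept over all libraries, by the root mean square difference of log2 CPM centred within each line. Only *FOS*, *FOSB* and *EGR1* had group means that spanned more than 1 log2 unit within a line. Among the genes closest to *FOS* were *TICAM1* (0.103) and *TBC1D13* (0.117), and those closest to *EGR1* were *UNC13A* (0.171), *CYTH3* (0.174) and *USP42* (0.184). The closest genes to *FOSB*, *SNORA15* (0.519), *SNORD67* (0.596) and *ZIK1* (0.598), were farther away. *FOSB* had only 2 to 55 reads a library, and the part of counting noise in that distance was not tested.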

How the data were processed

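Poly-A RNA-seq of 18 libraries was analysed. The authors deposited raw read counts per gene, made per the labels with Trimmomatic 0.36, STAR 2.5.2b and featureCounts (Subread 1.5.2) on GRCh38; the study's methods name hg19, but starts of 85.3% of 18942 protein-coding genes lay within 1000 bases of GRCh38 positions and 4.05% of 19567 of GRCh37 positions. Symbols were paired by Ensembl ID for 55082 genes.

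Counts were fitted with edgeR 4.0.16 (R 4.3.3, TMM, filterByExpr, glmQLFit, glmQLFTest) on the libraries of each of 9 comparisons, with Benjamini-Hochberg adjustment over all genes tested. The fit was also run on simulated counts modelled on ES8 sgDNAJC17 against sgCTL alone. That run held large changes in well-counted genes at a fixed spread. It therefore cannot speak for small changes, low counts or the interactions. The study used DESeq2, which was run here as an alternative (version 1.42.0), beside its size factors, library totals, no filter, all 18 libraries in 1 fit, a fold of at least 2, the replicate block, each library left out in turn, and, chosen after seeing the data, a correction for GC content (known for 95.8% of genes, from transcript sequences) and length. The planned correction from a genome was not run, since the genome at hand was of another build. CPM and FPKM were scaled by TMM over all libraries, the latter with the lengths in the files. Log2 CPM used a prior count of 2. Interaction values are Rh30 minus ES8.

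The replicate letters come from the labels and were not taken as a pairing in any comparison. The 10 members and the lists were chosen with earlier results of these data known. All members are named, and other list genes where a fold of at least 2 passed (at most 4 a list and comparison, by p) or where a role is stated; list genes given below a fold of 2 beside a count were chosen after their values were seen. BOP1 and PECAM1 were not matched. Some genes that these rules would name are not reported here. Motifs were searched in RefSeq promoters (GRCh38.p14) and GENCODE 3′ UTRs.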

Additional observations from a re-analysis of the deposited data

Results flagged for a closer look

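For 6 members the difference between ΔRRM cells with sgDNAJC17 and control-guide cells was not the same in the 2 lines, by the edgeR test of the interaction over 12 libraries. The Rh30 difference lay below the ES8 difference, on the log2 scale by -1.38 for *EGR1*, -1.21 for *FOS*, -0.70 for *IER3*, -0.69 for *JUN* and -0.26 for *JUNB*. For *KLF6* it lay above, at 0.44. The separate fits gave *EGR1* at -0.17 in ES8 and -1.55 in Rh30, and *JUN* at 0.36 in ES8 and -0.33 in Rh30. In these comparisons 41.4% of all genes tested passed the interaction test, so a difference between lines was common.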

How the results depend on the processing

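Requiring a fold of at least 2 lowered the counts of members called to 1 higher for ES8 sgDNAJC17 against sgCTL, 0 for Rh30 sgDNAJC17 against sgCTL, 0 higher and 2 lower for Rh30 ΔRRM against sgCTL, 1 lower for ES8 ΔRRM against sgDNAJC17, 0 higher and 3 lower for Rh30 ΔRRM against sgDNAJC17, 4 higher for Rh30 against ES8 sgCTL, and 0 higher and 2 lower for the ΔRRM interaction. Library totals gave 1 higher and 1 lower for Rh30 knockdown with *JUNB* at -0.042, 0 higher for Rh30 ΔRRM against sgCTL with *MYC* at -0.23, and 0 higher and 8 lower for the ΔRRM interaction; *FOS* turned to -0.014 for ES8 ΔRRM against sgCTL and *DUSP1* to -0.055 between lines. With all 18 libraries in 1 fit, 1 member was higher in Rh30 knockdown and 1 in ES8 ΔRRM against sgCTL, and *MYC* was at -0.034 in Rh30 ΔRRM against sgCTL. DESeq2 and edgeR without the filter on low counts each called 1 member higher in ES8 ΔRRM against sgCTL, the latter with *MYC* at -0.021 in Rh30. The cause of these shifts was not tested.

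The correction for GC content and length, chosen after the data were seen, gave 1 lower in ES8 knockdown with *EGR1* at -0.012, 1 higher in ES8 ΔRRM against sgCTL with *FOS* at -0.050 and *IER2* at -0.033, 2 higher in ES8 ΔRRM against sgDNAJC17, and 2 higher in the knockdown interaction with *JUN* at 0.094, *JUNB* at 0.024 and *IER2* at 0.011. In Rh30 ΔRRM against sgCTL it put *JUNB* at 0.014, *IER2* at 0.052 and *MYC* at -0.17, and in the ΔRRM interaction *IER2* at 0.11.

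In Rh30 knockdown, deviations from the group means of libraries with the same letter correlated at 0.202, 0.0718 and 0.097 over all 15391 genes tested, so 2 of 3 letters missed the 0.1 asked of a pairing and the libraries were treated as sharing only a letter. The check was then repeated over the 9391 genes with a mean of at least 10 CPM, a set chosen after the first result and the blocked calls had been seen, and gave 0.608, 0.295 and 0.332. In both sets each of the 6 libraries correlated best with its own letter, a hint from the data and not from the design. With the replicate letter as a block, 6 members were higher and 1 lower in Rh30 knockdown, and 8 higher and 1 lower with the GC correction added. In the other comparisons some letter correlated below 0.1, and the block kept each count of members within 1.5 times the value without it.

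Leaving out 1 library at a time, the count of members called ranged from 3 to 4 higher and 0 to 1 lower in ES8 knockdown. It ranged from 1 to 4 higher in Rh30 knockdown and 0 to 1 higher in ES8 ΔRRM against sgCTL. In ES8 ΔRRM against sgDNAJC17 it was 0 to 1 higher and 2 to 3 lower. As lower were called 4 to 5 members in Rh30 ΔRRM against sgCTL and 7 to 8 in Rh30 ΔRRM against sgDNAJC17. The count was 0 to 1 in either direction in the knockdown interaction and 4 to 6 lower in the ΔRRM interaction. Members whose sign turned were all uncalled: in ES8 knockdown *EGR1* from -0.12 to 0.17 and *IER3* from -0.079 to 0.027; in Rh30 knockdown *JUNB* from -0.016 to 0.051; in ES8 ΔRRM against sgCTL *FOS* from -0.044 to 0.087, *IER2* from -0.013 to 0.082 and *DUSP1* from -0.043 to 0.021; in Rh30 ΔRRM against sgCTL *JUNB* from -0.073 to 0.029 and *MYC* from -0.027 to 0.035; in ES8 ΔRRM against sgDNAJC17 *JUNB* from -0.039 to 0.092 and *KLF6* from -0.067 to 0.038; between lines *FOSB* from -0.23 to 0.80; and in the knockdown interaction *JUN* from -0.13 to 0.033. The values of the members and of the list genes named at a fold of at least 2 were counted together under the alternatives. Of these, 1481 kept direction and side of the threshold, 65 lost a call, 41 gained a call and 38 changed sign. Depth limits *FOSB* most, with 2 to 55 reads a library.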
